A study of Mus musculus with 2 samples.

Results

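The proteasome is the barrel-shaped protease that degrades ubiquitin-tagged proteins, and it is described here through the 50 genes, of 32285 in the deposited tables, whose symbols begin with Psma, Psmb, Psmc, Psmd, Psme, Psmf or Psmg and do not name a pseudogene. Its 20S core is a stack of rings of alpha (Psma) and beta (Psmb) subunits, and its 19S cap recognises and unfolds substrates with ATPase (Psmc) and non-ATPase (Psmd) subunits. Peptide bonds are cut by 3 constitutive beta subunits, Psmb5, Psmb6 and Psmb7. Interferon-gamma induces substitutes for them, Psmb8 for Psmb5, Psmb9 for Psmb6 and Psmb10 for Psmb7, and a core that carries them is called the immunoproteasome. It yields peptides well suited to presentation on MHC class I, and its usual partner, the PA28 cap of Psme1 and Psme2, is induced with it. Hematopoietic cells are known to carry immunoproteasomes without infection.

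The cells came from the livers of male C57Bl6/J mice that had been lethally irradiated and given bone marrow from Trem2-/- donors or from their Trem2+/+ littermates. TREM2 is a lipid-sensing receptor of macrophages. After 6 weeks of recovery all mice of both groups ate a methionine- and choline-deficient (MCD) diet for 4 weeks, a model of steatohepatitis, so no group without the diet is compared here. Live CD45+ cells of 4 mice per group were pooled in equal parts into 1 library per group and profiled by 10x Genomics 5' single-cell sequencing. Irradiation acts on hematopoietic cells, so cells of the liver that survive it, and any host macrophages that remained, keep the recipient's Trem2. With 1 library per group nothing here has a replicate check: all intervals are 95% intervals of counting error, no p-value is given, and a difference between the libraries cannot be told apart from a difference between any other pair of pooled libraries.

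The libraries held 25288032 UMIs (molecules counted once by their identifiers) in 6362 barcodes for Trem2-/- and 27238586 UMIs in 7012 barcodes for Trem2+/+. Filters kept 5974 and 6596 cells, in which a cell had 2931.5 and 2492 UMIs at the median. The libraries shared 56 barcode sequences. Trem2 itself was counted at 6.19 CPM (the gene's UMIs over all UMIs of the same cells, on the usual counts-per-mega scale) in the Trem2-/- library and 204 CPM in the Trem2+/+ library, and at 26.4 and 543 CPM in macrophage-like cells. Which part of Trem2 the allele lacks is not given in the labels. Cells were clustered without the proteasome and Trem genes, and clusters were named "-like" from marker genes, giving 13 classes. Ratios between libraries are read in the 10 classes of at least 100 cells in both. The mature dendritic cell-like (mature DC-like), plasmacytoid dendritic cell-like (pDC-like) and cycling cells are given as levels. The gene of the sort marker CD45, Ptprc, was low in endothelial-like cells, at 49.4 and 76.4 CPM, and stood at 560 and 466 CPM in macrophage-like cells. Unnamed clusters held 16.8% of Trem2-/- and 12.4% of Trem2+/+ cells. The macrophage-like class took 6.91% of Trem2-/- cells and 16.7% of Trem2+/+ cells.

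All 50 members had at least 1 UMI, 48 had at least 100 UMIs over both libraries, and 44 averaged at least 20 CPM. Those near 0 are forms of other tissues: Psma8, a testis form of an alpha subunit, had 38 and 31 UMIs in the Trem2-/- and Trem2+/+ libraries, and Psmb11, the catalytic subunit of the thymoproteasome, had 1 UMI in each. The 5 immunoproteasome genes summed to 1977 and 1835 CPM over all kept cells, and the 31 constitutive subunits of the 20S core and 19S cap to 3674 and 3930 CPM. In GENCODE M21 (GRCm38) Psmb9 and Psmb8 are neighbours on chromosome 17, at chr17:34181987-34187764 and chr17:34197721-34201454, Psmb10 is at chr8:105935735-105938444, and Psme1 and Psme2 are neighbours at chr14:55578123-55581529 and chr14:55587441-55591113. The subunits they replace are at chr14:54614119-54618022 (Psmb5), chr11:70525367-70527858 (Psmb6) and chr2:38588036-38644087 (Psmb7).

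The summed immunoproteasome level differed between cell classes and was highest in mature DC-like and cDC1-like cells. Mature DC-like cells, a type that can migrate to lymph nodes, reached 4823 CPM in the Trem2-/- library and 5361 CPM in the Trem2+/+ library. The cDC1-like cells, the conventional dendritic cells specialised in cross-presenting antigen on MHC class I, followed with 3677 and 3610 CPM. Cycling cells had 2668 and 2634 CPM, pDC-like cells 2545 and 2507 CPM, and cDC2-like cells 2375 and 2055 CPM. T cell-like cells had 2201 and 2151 CPM and NK/ILC1-like cells 2201 and 2127 CPM. The low end was neutrophil-like cells with 825 and 758 CPM, endothelial-like cells with 945 and 1016 CPM, and B cell-like cells with 1086 and 1020 CPM. Among the 10 larger classes the highest level was 4.46-fold the lowest in the Trem2-/- library and 4.77-fold in the Trem2+/+ library.

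Constitutive subunits followed another order. Their sum was lowest in neutrophil-like cells, at 1314 and 1584 CPM. Over all 10 classes the highest constitutive sum was 3.33-fold the lowest in the Trem2-/- library and 3.01-fold in the Trem2+/+ library. The immunoproteasome sum had 4.46-fold and 4.77-fold. Without neutrophil-like cells the highest of the remaining 9 classes was 1.67-fold the lowest in the Trem2-/- library and 1.8-fold in the Trem2+/+ library, against 3.89-fold and 3.55-fold for the immunoproteasome sum. Single constitutive genes varied more than their sum, with a median of 4.07-fold and 3.52-fold over the 10 classes. The endothelial-like and cDC1-like classes show the contrast: their constitutive sums were 3733 and 4380 CPM in the Trem2-/- library, while their immunoproteasome sums were 945 and 3677 CPM. Of the 46 members with a UMI in all 10 classes of both libraries, 41 were lowest in neutrophil-like cells in both. Gene by gene, the SD of log2 level over the 10 classes had a median of 0.69 and 0.71 for the 5 immunoproteasome genes, 0.60 and 0.54 for the 31 constitutive genes, and 0.78 and 0.71 for the 6127 genes compared.

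**Figure D1:**
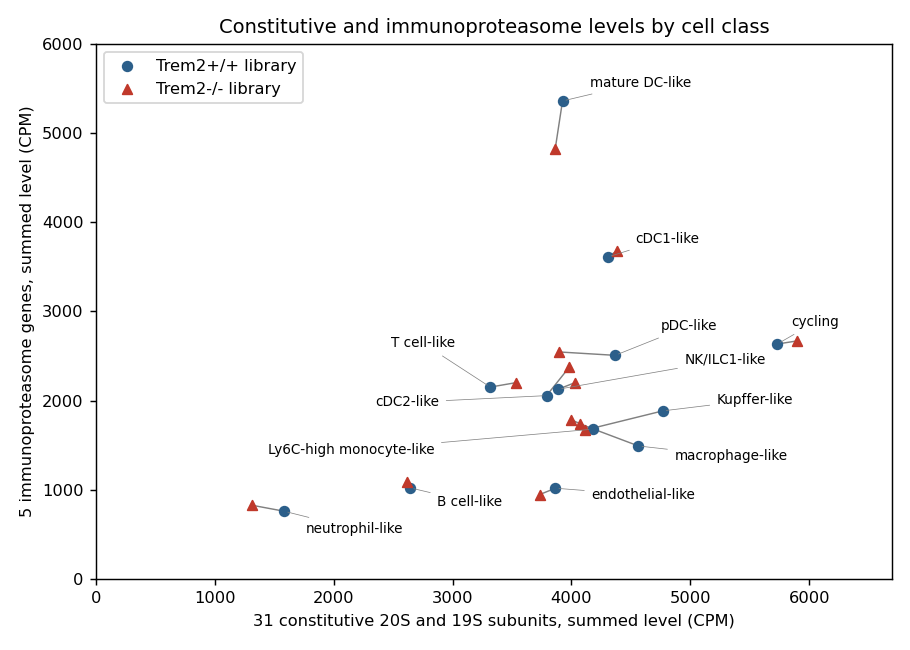
Summed level of the 5 immunoproteasome genes (vertical axis, CPM) against the summed level of the 31 constitutive subunits (horizontal axis, CPM) for 13 cell classes, with a circle for the Trem2+/+ library and a triangle for the Trem2-/- library joined by a line. Mature DC-like cells stand highest at 4823 and 5361 CPM on the vertical axis, and neutrophil-like cells stand lowest on both axes.

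Psmb8 had the widest range of the 5 immunoproteasome genes. Its lowest class was endothelial-like, with 159 and 165 CPM in the Trem2-/- and Trem2+/+ libraries, and its highest of the 10 was cDC1-like, with 1135 and 1123 CPM, a 7.16-fold and 6.79-fold range. Psmb9 was also highest in cDC1-like cells, at 711 and 635 CPM, and lowest in neutrophil-like cells, at 131 and 111 CPM. Psmb10 was ordered differently: it peaked in NK/ILC1-like cells at 237 and 238 CPM and had only 155 and 165 CPM in cDC1-like cells. Psme1, the PA28 alpha subunit, ran from 203 and 201 CPM in neutrophil-like to 1142 and 1161 CPM in cDC1-like cells. Psme2, the PA28 beta subunit, ran from 151 and 174 CPM in B cell-like to 532 and 527 CPM in cDC1-like cells, and reached 1507 and 1686 CPM in mature DC-like cells.

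Over the 20 class-by-library points, which share libraries and total-count scaling, the log2 levels of Psmb8 and Psmb9 had a Pearson r of 0.81 and those of Psmb8 and Psme1 an r of 0.87. Psmb10 was closer to the constitutive Psmb5 and Psmb6 (0.81 and 0.82) than to Psmb8 (0.50) or Psmb9 (0.33). These correlations are descriptions of 20 points that are not independent. The 5 genes outside the family most like the summed immunoproteasome were Mthfd2, Hspa8, Ezh2, Nhp2 and Eif5a, with r from 0.88 to 0.89. Tap1, the peptide transporter subunit encoded beside Psmb9, had an r of 0.78. The 5 most like the constitutive sum were Cox7b, Prdx2, Atp5g1, Tbcb and Hint1, with r from 0.97 to 0.98.

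The share of catalytic UMIs that came from Psmb8, Psmb9 and Psmb10, out of these plus Psmb5, Psmb6 and Psmb7, sets the substitutes against the subunits they replace. It counts transcripts, and it does not measure assembled particles. In the Trem2+/+ library it was 84.1% in mature DC-like, 79.0% in cDC1-like, 77.4% in T cell-like, 72.2% in NK/ILC1-like and 72.0% in cDC2-like (type 2 conventional dendritic) cells. It was 67.9% in B cell-like, 65.4% in neutrophil-like, 60.8% in Ly6C-high monocyte-like and 59.2% in Kupffer-like cells. The low end was endothelial-like cells, at 52.4% (49.7 to 55.0%), and macrophage-like cells, at 51.5% (50.6 to 52.5%), whose intervals overlap. In the Trem2-/- library the macrophage-like share was 62.8% (61.4 to 64.2%), with no overlap with the endothelial-like 53.5% (51.5 to 55.5%).

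**Figure D2:**
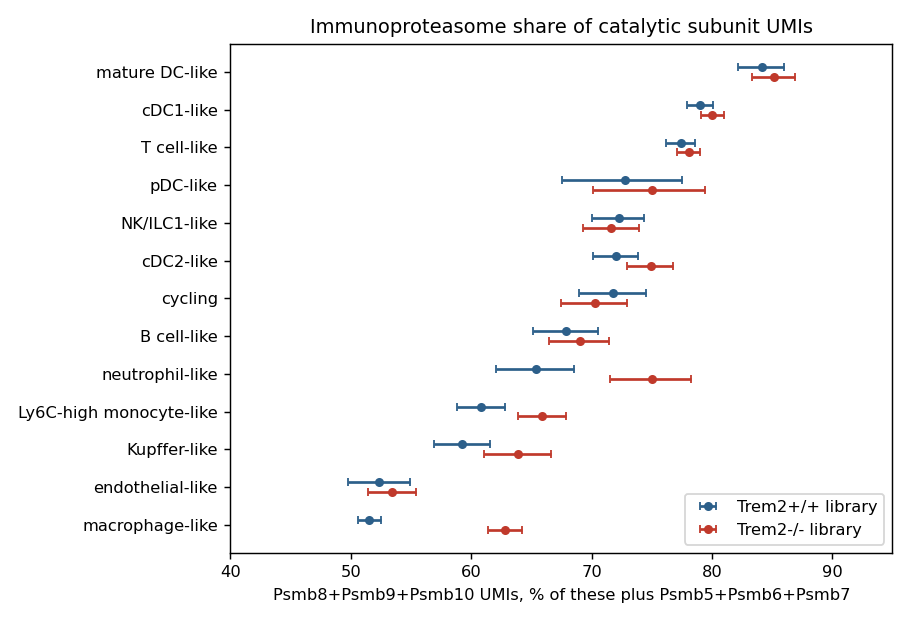
Percent of catalytic subunit UMIs from Psmb8, Psmb9 and Psmb10 (horizontal axis) in 13 cell classes, ordered by the Trem2+/+ library; points are libraries and bars are exact binomial 95% intervals of counting error. The libraries' intervals do not overlap in macrophage-like, neutrophil-like and Ly6C-high monocyte-like cells.

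Macrophage-like cells had the largest difference in that share between libraries among the 10 classes, 11.3 percentage points, ahead of neutrophil-like cells with 9.63 points. A first clustering, replaced after its class sizes were seen, gave these in the opposite order, 8.35 against 12.02 points. The class held 413 Trem2-/- and 1099 Trem2+/+ cells in clusters 4 and 12. In neutrophil-like cells the share was 75.0% against 65.4%, in Ly6C-high monocyte-like cells 65.9% against 60.8%, and in Kupffer-like cells 63.9% against 59.2%. In cDC2-like cells it was 74.9% against 72.0%. The intervals of the 2 libraries overlapped in Kupffer-like cells (61.1 to 66.6% and 56.9 to 61.5%) and in cDC2-like cells (73.0 to 76.8% and 70.1 to 73.8%). The T cell-like (78.1% and 77.4%), NK/ILC1-like (71.6% and 72.2%), cDC1-like (80.0% and 79.0%), B cell-like (69.0% and 67.9%) and endothelial-like classes also had overlapping intervals. Over all kept cells the share was 72.1% against 65.3%, a value that also carries the different class make-up of the libraries.

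In macrophage-like cells all 5 immunoproteasome genes were higher in the Trem2-/- library, each by less than 1.5-fold. Psmb8 had 461 CPM against 386 CPM, a log2 ratio of 0.26 (0.17 to 0.34). Psmb9 had 180 against 145 CPM, a log2 ratio of 0.31 (0.17 to 0.45). The other members had the same direction: Psmb10 had 184 against 158 CPM (0.22), Psme1 494 against 444 CPM (0.15) and Psme2 417 against 357 CPM (0.22). The sum was 1736 CPM (5988 UMIs) against 1490 CPM (12223 UMIs), a log2 ratio of 0.22 (0.18 to 0.27). The median of all 5442 genes compared in this class was 0.00, 2.22% of them were at least 1.5-fold higher and 1.6% at least 1.5-fold lower, and no proteasome gene among the 42 that averaged 20 CPM passed that size in either direction.

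The constitutive subunits leaned the other way in the same cells. Beside a median of 0.00 over all genes compared in this class, 29 of the 31 had a log2 ratio below 0. Their median was -0.14 and their summed level was 4073 CPM against 4564 CPM, a log2 ratio of -0.16 (-0.19 to -0.14). Psmb6, the caspase-like catalytic subunit that Psmb9 replaces, was lowest, with 215 CPM (740 UMIs) against 319.5 CPM (2621 UMIs) and a log2 ratio of -0.57 (-0.69 to -0.46), which ranged from -0.68 to -0.38 over the alternatives, the last with the first clustering. Psmb5, the chymotrypsin-like subunit, had 191 against 237 CPM (-0.31), and Psmb7, the trypsin-like subunit, 82.9 against 91.2 CPM (-0.14), with an interval that included 0. Psmb9 therefore made up 45.6% of Psmb9 and Psmb6 UMIs in the Trem2-/- library and 31.2% in the Trem2+/+ library, a wider gap than Psmb8 with Psmb5 (70.7% and 62.0%) or Psmb10 with Psmb7 (69.0% and 63.4%).

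**Figure D3:**
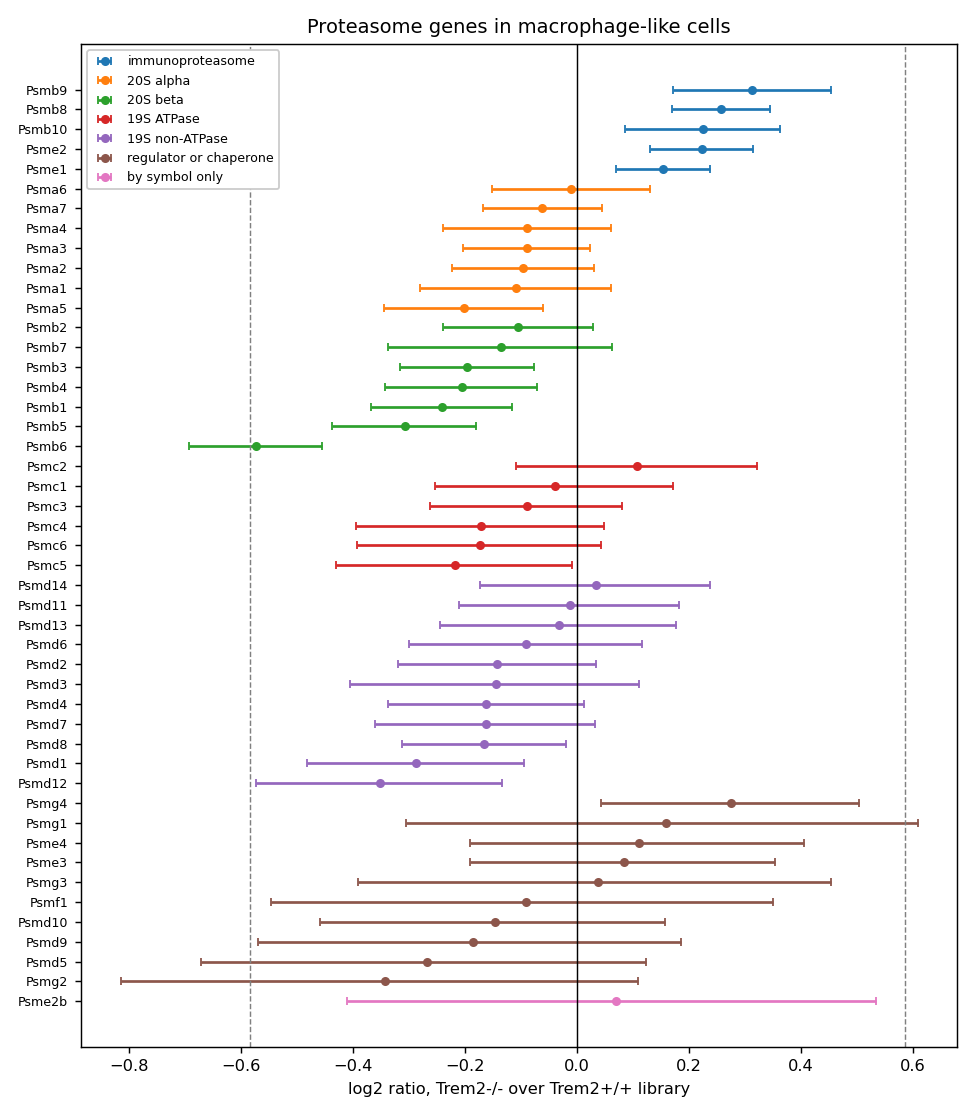
Log2 ratio (Trem2-/- over Trem2+/+ library, horizontal axis) of each proteasome gene with at least 100 UMIs in macrophage-like cells, grouped by role; bars are exact 95% intervals of counting error and dashed lines mark 1.5-fold. The 5 immunoproteasome genes lie right of 0 with intervals clear of it, and Psmb6 lies farthest left at -0.57.

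In the rest of the complex most ratios in macrophage-like cells were also below 0. The 7 alpha subunits, which form the outer rings and the gate, all had ratios below 0, from -0.20 for Psma5 to -0.01 for Psma6. The 7 constitutive beta subunits also all lay below 0, with a summed log2 ratio of -0.28. The 6 ATPases summed to -0.10 and the 11 non-ATPase subunits to -0.14. The lowest among those not yet named were Psmd12, a lid subunit, with 66.1 against 84.4 CPM (-0.35), the assembly chaperone Psmg2, with 15.7 against 19.9 CPM (-0.34, interval including 0), and Psmd1, a scaffold of the 19S base, with 86.1 against 105 CPM (-0.29). The highest were Psmg4, another assembly chaperone, with 68.7 against 56.8 CPM (0.27), and Psmg1 (0.16) and Psme4 (0.11), both with intervals that included 0. Psme3, the nuclear PA28 gamma cap, had 47.3 against 44.6 CPM (0.08, interval including 0).

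Both macrophage-like clusters had the same directions, and their sizes differed. In cluster 4, led by Gpnmb, F7 and Mmp12, the immunoproteasome sum had a log2 ratio of 0.27 and the constitutive sum -0.23, and the share was 61.4% against 46.7%. In cluster 12 these were 0.15, -0.07 and 65.2% against 59.4%. At Leiden resolution 2 the macrophage-like class held only 179 and 886 cells. A cluster led by Lyz1 and Thbs1, with 177 and 302 cells, was then named Ly6C-high monocyte-like. A macrophage-like cluster led by Gpnmb and Mmp12 held 87 and 404 cells. Cluster 4 may thus differ in make-up between the libraries, and the part of this in its ratios was not tested. The 9 markers of Ly6C-high monocytes summed to 2016 CPM in Trem2-/- and 1237 CPM in Trem2+/+ macrophage-like cells, with none at 0, the 9 Kupffer cell markers to 1084 and 783 CPM, and the 13 macrophage markers to 25720 and 30650 CPM. Their part in the proteasome ratios was not tested. The values moved with how cells were selected and counted: the immunoproteasome log2 ratio ranged from 0.11 to 0.34 and the share difference from 8.35 to 15.04 points over the alternatives. The first clustering, with 89 and 483 macrophage-like cells, gave the lowest of both, with shares of 47.6% in the Trem2-/- and 39.2% in the Trem2+/+ library.

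Genes of the interferon-gamma pathway were examined beside the subunits in macrophage-like cells. Of 9 measured genes of the input side, 8 were above 0, as were 8 of 8 in Kupffer-like, 9 of 9 in T cell-like and 4 of 9 in cDC1-like cells. In macrophage-like cells 1 of them, Nlrc5, the MHC class I transactivator, was at least 1.5-fold higher, with 24.6 against 16.3 CPM. Irf1, a transcription factor for Psmb9, had 209 against 144 CPM (0.54). Of 5 measured other interferon-gamma-induced genes, all were above 0 with a median of 0.86, and 3 were past 1.5-fold higher, beside the 2.22% of all genes: the chemokine Cxcl9 (268.5 against 94.1 CPM, 1.51), the GTPase Gbp2 (128 against 70.7 CPM, 0.86) and the GTPase Igtp (0.91). In other classes the same list had a median of 1.13 in neutrophil-like cells (3 of 4 measured past 1.5-fold higher, beside 3.43% of all genes), 0.73 in cDC2-like cells (3 of 5, beside 3.71%) and -0.34 in T cell-like cells (0 of 3 above 0). It was 0.67 in cDC1-like cells (2 of 3, beside 1.41%). In Kupffer-like cells it was 0.32 (2 of 6 higher and 1 lower, beside 7.76% and 3.93%), while their immunoproteasome sum had a log2 ratio of -0.18. Ly6C-high monocyte-like, NK/ILC1-like and endothelial-like cells had medians of 0.12, 0.04 and 0.01, and B cell-like cells had 1 measured gene (0.29). In macrophage-like cells all 7 genes of peptide processing beside the proteasome were above 0, with a median of 0.11. That was not particular to them: the median of these genes was above 0 in each of the 10 classes, from 0.04 in T cell-like to 0.16 in cDC2-like cells. Ifng itself had 11 and 3 UMIs in these cells. Of 10 measured genes of assembly and shuttling, 1 was above 0. Nfe2l1, the transcription factor known to restore subunit transcription when proteasome activity falls, had 45.5 against 48.5 CPM, and Nfe2l2, which also acts at such promoters, 584 against 451 CPM (0.37).

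Promoters were read because Psmb5 and Psmb6 were lower and Psmb8 higher in macrophage-like cells of the Trem2-/- library. The genes shown were thus chosen by these ratios, and any part of the motifs in the ratios was not tested. RefSeq windows from 250 bases before to 50 after the start (GRCm38.p6) were matched for 42 of the 50 members. The core of the antioxidant response element, TGACNNNGC on either strand, the sequence at which the Nfe2l1 and Nfe2l2 proteins bind, was in 6 of the 42 (Psmb5, Psmb6, Psmc6, Psmd12, Psmd9 and Psme4) and in 12.4% of all 32851 windows. The gamma-activated site TTCNNNGAA, an element of interferon-gamma-induced promoters, was in 3 of the 42 (Psmb8, Psmd2 and Psmg1) and in 8.30% of windows. For both motifs the member counts were close to the share of all windows. The interferon-stimulated response element was in 5 of the 42, among them Psme1, and in 3.44% of windows, and an NF-kB-like motif in 0 of the 42 and 4.79% of windows. The stretches shown hold 1 match each, with no overlap between motifs, and are 5′ to 3′ on the gene's strand, with the match in capitals. They are chr14:54618023-54618115 on the minus strand for Psmb5, chr11:70525237-70525356 on the plus strand for Psmb6 and chr17:34198088-34198116 on the plus strand for Psmb8, the last inside an annotated UTR. The matches begin at -47, -9 and -97 from the RefSeq start.
Psmb5: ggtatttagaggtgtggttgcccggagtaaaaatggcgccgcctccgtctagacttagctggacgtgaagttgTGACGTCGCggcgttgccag
Psmb6: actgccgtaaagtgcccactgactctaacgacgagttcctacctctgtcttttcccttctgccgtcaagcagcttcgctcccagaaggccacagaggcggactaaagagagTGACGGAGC
Psmb8: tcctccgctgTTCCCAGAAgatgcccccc
These letters describe the windows. They are not measured binding sites, and a member without a match, such as Psmb9 and Psmb10 for the gamma-activated site, may hold such sites elsewhere.

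Kupffer-like cells, the resident macrophages of the liver, had lower values of both lists in the Trem2-/- library, in 267 and 374 cells. The immunoproteasome sum was 1668 against 1884 CPM (-0.18, -0.27 to -0.08) and the constitutive sum 4112 against 4768 CPM (-0.21, -0.27 to -0.16). The first of these was the less stable, ranging from -0.22 to 0.01 over the alternatives and changing sign in 2 of 9: without the highest doublet scores and with the first clustering. Without the highest doublet scores the cells were also grouped differently. The Kupffer-like class then held 373 and 771 cells, with Pf4 and C1qc among its leading genes, and the macrophage-like class 283 and 698 cells. In the main analysis the 5 immunoproteasome genes were split. Psmb8 had 390 against 385 CPM and Psmb9 213 against 210 CPM, both within counting error. Psmb10 (161 against 212 CPM, -0.39), Psme1 (528 against 615 CPM, -0.22) and Psme2 (375 against 462 CPM, -0.30) were lower. Psmb6 was 169 against 249.7 CPM (-0.57, and -0.61 to -0.30 over the alternatives). Psmb5 was 161 against 212 CPM (-0.39), the same values as Psmb10. Among 47 members measured, none was past 1.5-fold higher and 2 were past 1.5-fold lower, against 7.76% higher and 3.93% lower of all genes in this class. They were Psmd8, a lid subunit, with 86.9 against 141 CPM (-0.70), and Psme2b, with 24.5 against 41.1 CPM (-0.74).

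Neutrophil-like cells had few proteasome UMIs, and their values depended on 1 cluster. Cluster 8 held 6 Trem2-/- and 174 Trem2+/+ cells, so the class differs in make-up between libraries. In the whole class the immunoproteasome sum was 825 against 758 CPM (0.12, with an interval that included 0) and the constitutive sum 1314 against 1584 CPM (-0.27). Markers of other cell types also differed in the class. The 13 macrophage markers summed to 1345 against 2145 CPM with none at 0, the 9 B cell markers to 51.9 against 128 CPM, the 11 T cell markers to 48.5 against 92.9 CPM, the 10 NK/ILC1 markers to 34.1 against 62.9 CPM and the 8 stellate cell or fibroblast markers to 268 against 20.5 CPM. Their part in the proteasome ratios was not tested. In cluster 7 alone the sums were 738 against 623 CPM (0.24, 0.10 to 0.39) and 1217 against 1353 CPM (-0.15), and the share was 73.8% against 62.7%. Psmb6 had 37 and 84 UMIs in the class (31.5 against 57.4 CPM, -0.87), past 1.5-fold. It was -0.64 in cluster 7 alone and ranged from -1.22 to -0.33 over the alternatives, the last under stricter cell filters and short of 1.5-fold. Psmb2, a structural beta subunit, had 48.5 against 81.3 CPM (-0.74). With Psmd7, a lid subunit (-0.76), and Psme3 (-0.64), whose intervals included 0, 4 of 32 measured members were past 1.5-fold lower and none higher, against 9.51% lower and 3.43% higher of all genes. With each library clustered alone the immunoproteasome ratio of the class was -0.05, and as a mean over cells the constitutive ratio was -0.52.

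In cDC2-like cells, the dendritic cells that mainly prime CD4 T cells, all 5 immunoproteasome genes were above 0 and the sum was 2375 against 2055 CPM (0.21, 0.14 to 0.28), while the constitutive sum was 3982 against 3791 CPM (0.07). Psmb8 had 811 against 667 CPM there (0.28). The 9 mature DC markers summed to 526 against 835 CPM in these cells, with none at 0, and their part was not tested. Psmc1, an ATPase, was the 1 of 44 members past 1.5-fold higher (52.0 against 33.5 CPM), beside 3.71% of all genes, and Psmf1, a proteasome inhibitor (-0.63), and Psmg2 (-0.63) were past 1.5-fold lower, beside 2.99%, both with intervals that included 0. In Ly6C-high monocyte-like cells, the precursors of recruited macrophages, the immunoproteasome sum was 1783 against 1678 CPM (0.09, 0.01 to 0.16), Psmb8 472 against 426 CPM (0.15) and Psmb6 155 against 186 CPM (-0.26). Psmd9, a 19S assembly chaperone, was past 1.5-fold lower there (21.4 against 35.8 CPM), the 1 of 41 members, beside 1.75% of all genes, and none was past it higher, beside 2.82%. No member of 47 was past 1.5-fold in cDC1-like cells, where 1.41% of all genes were higher and 1.39% lower by that size. Their immunoproteasome sum differed by a log2 ratio of 0.03 (-0.02 to 0.07), although Cxcl9 was at 292 against 62.1 CPM there.

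Lymphoid and endothelial-like cells had small ratios. In T cell-like cells, with 1336 and 881 cells, the immunoproteasome sum had a log2 ratio of 0.03 (-0.01 to 0.08) and the constitutive sum 0.09 (0.06 to 0.13), with 25 of 31 constitutive genes above 0, beside a median of 0.10 over all genes of that class. All 6 ATPases were above 0 there, led by Psmc2 (66.6 against 47.8 CPM, 0.48) and Psmc1 (51.7 against 37.9 CPM, 0.45). Its clusters 1, 5 and 13 had immunoproteasome ratios of 0.03, -0.06 and -0.14, and constitutive ratios of only 0.01, 0.03 and 0.04, so the 0.09 of the class was not seen within its clusters. Weighted equally, the clusters gave 0.03, and median-ratio scaling gave -0.00. Cluster 5, led by Gzmk and Pdcd1, made up 49.3% of Trem2-/- and 36.4% of Trem2+/+ T cell-like cells and had 2483 and 2594 CPM, above cluster 13, led by Dapl1 and Nsg2, with 1630 and 1792 CPM. In NK/ILC1-like cells Psme3 was at 87.8 against 62.9 CPM (0.48), and Psmg4 and Psme4 were the 2 of 46 members past 1.5-fold, both lower, beside 4.63% higher and 2.89% lower of all genes. No member was past it in T cell-like cells (3.73% higher and 0.478% lower of all genes), B cell-like cells (4.07% and 2.06%) or endothelial-like cells (1.38% and 1.22%). NK/ILC1-like cells had an immunoproteasome ratio of 0.05 (-0.03 to 0.13) and B cell-like cells 0.09 (-0.01 to 0.19). Endothelial-like cells had -0.10 (-0.19 to -0.02), with Psme2 lowest of the 5 (177 against 214 CPM, -0.27), and Psmc1 the highest member at 93.3 against 67.4 CPM (0.47). No immunoproteasome gene was past 1.5-fold in any of the 10 classes.

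**Figure D4:**
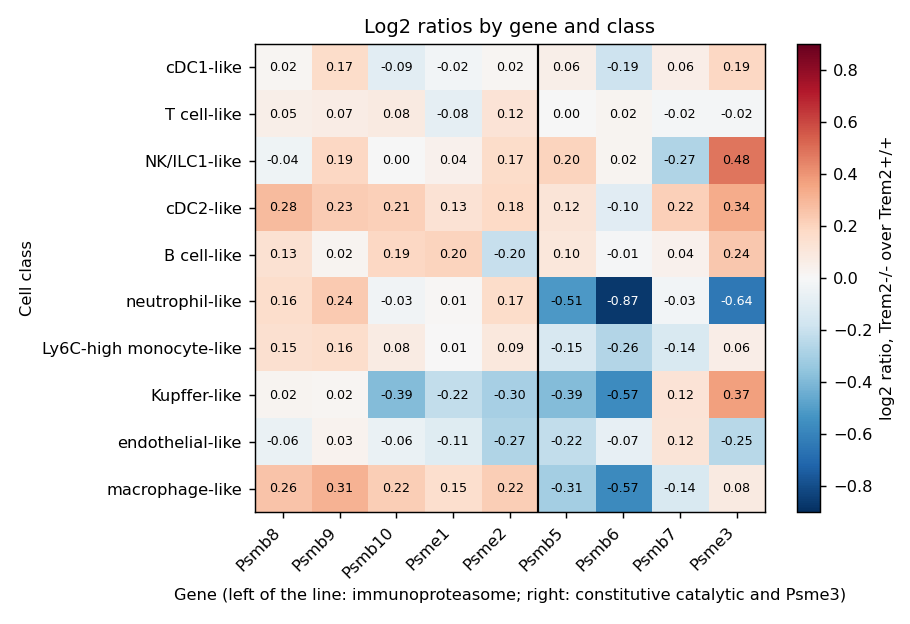
Log2 ratio (Trem2-/- over Trem2+/+ library, printed and coloured) of the 5 immunoproteasome genes, the 3 constitutive catalytic genes and Psme3 in the 10 classes. The macrophage-like row has 5 positive values left of the line, and Psmb6 is at -0.57 in macrophage-like and Kupffer-like and at -0.87 in neutrophil-like cells, the last ranging from -1.22 to -0.33 over the alternatives.

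Psmb6 was the member with the lowest ratio over all kept cells, with 155 CPM (3843 UMIs) against 211 CPM (5651 UMIs), a log2 ratio of -0.45 (-0.51 to -0.39). Beside the low values in macrophage-like, Kupffer-like and neutrophil-like cells it had 138 against 135 CPM in T cell-like, 172 against 169 CPM in NK/ILC1-like and 119 against 119.5 CPM in B cell-like cells. Its log2 ratio was -0.26 in Ly6C-high monocyte-like, -0.19 in cDC1-like, -0.10 in cDC2-like and -0.07 in endothelial-like cells. The cDC1-like and cDC2-like values each changed sign in 1 of 9 alternatives. Macrophage-like cells had the highest Psmb6 level of the 10 classes in both libraries. They were 6.91% of Trem2-/- and 16.7% of Trem2+/+ cells, so the ratio over all kept cells also carries the different class make-up of the libraries. Over all kept cells 4.62% of 6230 genes were at least 1.5-fold higher and 1.86% lower, and no member was among them.

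Reads of Psme2 can be shared with Psme2b, a gene on chromosome 11 named as its copy: their transcripts were 99.4% identical over 794 aligned bases. Psme2b had 438 and 510 UMIs against 9960 and 10394 for Psme2. Both levels are uncertain, and these counts do not give the size of the error, because reads that fit both genes may be missing from both. Without Psme2 the immunoproteasome log2 ratio in macrophage-like cells stayed within its interval. Psmc3ip, taken by its symbol, is a recombination factor and no proteasome subunit, and had 101 and 91 UMIs.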

How the data were processed

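UMI counts per gene and barcode of 2 libraries of sorted liver CD45+ cells were deposited; per the file headers they were made with Cell Ranger 5.0.1, and per the submitters' processing notes against mm10. The sources used here name no annotation release; coordinates are from GENCODE M21 and promoter sequences from RefSeq. The other deposited files hold names only.

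The filter on cells asked for 200 genes or more and no more than 10% of UMIs from mitochondrial genes. Scrublet called 4 and 2 barcodes, so doublets were in effect not removed. Counts were scaled to 10000 per cell; 2000 variable genes without the members and Trem genes, 30 components, 15 neighbours and Leiden resolution 1 gave the clusters (scanpy 1.11.5), named from fixed markers of 22 classes. A first clustering with scaled genes was replaced after its class sizes and names had been seen, because it left 89 Trem2-/- macrophage-like cells, under the minimum of 100. A limit on competing markers was likewise set to 0.65 after clusters were seen. The values of the first clustering stand among the alternatives. Within a class, each library's UMIs were added up and given as CPM with exact Poisson intervals, ratios with exact conditional binomial and shares with exact binomial intervals. Intervals cover counting error only. Genes averaging at least 20 CPM were compared. The ratio step was tested on simulated data.

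The members and lists were chosen with earlier results of these data known. Named are the immunoproteasome, constitutive catalytic and Psme3 genes in each class, and the 3 highest and 3 lowest other members with at least 100 UMIs. Members past 1.5-fold are named too, and a few others for their role, after their values were seen; Paaf1 of the assembly list was not found under that symbol and was not analysed here. Alternatives varied cell filters, doublets, clustering, scaling, weighting, depth and the members summed.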

Additional observations from a re-analysis of the deposited data

Results flagged for a closer look

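The summed ratios of Trem2-/- over Trem2+/+ pointed in opposite directions between cell classes, with intervals of counting error clear of 0. With 1 library per group these differences between classes were not tested. For the immunoproteasome genes the log2 ratio was 0.22 in macrophage-like, 0.21 in cDC2-like and 0.087 in Ly6C-high monocyte-like cells, against -0.18 in Kupffer-like and -0.10 in endothelial-like cells. For the constitutive subunits it was 0.093 in T cell-like and 0.071 in cDC2-like cells, against -0.27 in neutrophil-like, -0.21 in Kupffer-like, -0.16 in macrophage-like, -0.063 in Ly6C-high monocyte-like and -0.050 in endothelial-like cells. Under at least 1 alternative the sign turned for the immunoproteasome ratio in Kupffer-like cells and for the constitutive ratio in T cell-like, cDC2-like and endothelial-like cells.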

How the results depend on the processing

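No paired analysis was possible because each group is 1 library. Of 48 alternative values of the main results, 30 stayed within counting error, 18 moved beyond it and none changed direction. The macrophage-like immunoproteasome log2 ratio was 0.17 with all deposited barcodes, 0.16 under stricter cell filters, 0.32 without the 5% highest doublet scores, 0.34 with each library clustered alone, 0.11 with cells thinned to 1000 UMIs and 0.11 with the first clustering, which was added after seeing the data. Without the highest doublet scores the macrophage-like class also changed, from 413 and 1099 to 283 and 698 cells, while the Kupffer-like class grew. The constitutive ratio was -0.23 under the stricter filters, -0.20 with each library clustered alone and -0.13 with thinned cells. The immuno share of catalytic UMIs in macrophage-like cells, difference between libraries, was 15.04 points without the highest doublet scores, 14.4 with each library alone, 9.41 as a mean over cells, 8.85 with thinned cells and 8.35 with the first clustering. Over all kept cells the immunoproteasome ratio was 0.047 with median-ratio scaling, 0.036 as a mean over cells and 0.073 with thinned cells. The T cell-like minus endothelial-like share difference in the Trem2+/+ library was 28.1 points with thinned cells. Of 1359 values of single genes and other classes, 153 moved beyond counting error and 144 turned sign, none of them past 1.5-fold in the main analysis. The cause was not tested. Counts limit single genes in the neutrophil-like class, where 37 Psmb6 UMIs were counted in the Trem2-/- library.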
